A study of Mus musculus with 3 samples.

Results

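The colony-stimulating factor receptors and their ligands were examined in unstimulated macrophages as a set of 9 genes, chosen by name from the 55536 genes of the tables. They are the receptors Csf1r, Csf2ra, Csf2rb, Csf2rb2, Csf3r, Flt3 and Kit and the ligands Csf1 and Il34. The cells were primary bone marrow macrophages of the inbred mouse strain C57BL/6J, and their polyadenylated RNA was sequenced in 3 libraries. All 3 carry the label of 100 ng/ml lipid A, the part of bacterial endotoxin that Toll-like receptor 4 binds, at 0 minutes. They form 1 group without a contrast, so the data give levels and their spread between libraries. Sex and age were not collected, and the growth factor in the culture medium is not given in the labels used here. Each library has its own biosample under a shared donor record. Whether the cultures came from separate animals is not stated, so the spread may be partly technical.

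CSF1R is the receptor tyrosine kinase on which macrophage survival depends, and CSF1 and IL-34 are its ligands. FLT3 and KIT are its relatives on blood progenitors, with KIT also kept by mast cells. The GM-CSF receptor pairs the alpha chain CSF2RA with the shared beta chain CSF2RB, which also serves the receptors for IL-3 and IL-5. Mice carry a close copy of that chain, CSF2RB2, which works with the IL-3 receptor alpha chain. CSF3R binds G-CSF and is best known from neutrophils. These receptors without a kinase of their own signal through JAK kinases and STAT factors.

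The sequences below show where transcripts of the members can and cannot be told apart. Letters are from the mm10 genome annotation GENCODE M21, written 5′ to 3′. In Csf1, the choice in exon 6 separates a long form, whose product is cut free from the cell, from a short form that stays at the cell surface. The long exon (chr3:107748154-107749169, minus strand) has 1016 bases, and the short one (chr3:107748154-107748284) has 131, so 885 coding bases are skipped. Capitals mark the first bases of exon 6 after the shared exon 5.
Csf1-201: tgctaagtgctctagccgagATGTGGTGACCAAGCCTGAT
Csf1-202: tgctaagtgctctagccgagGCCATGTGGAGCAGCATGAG

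In Kit, alternative ends of exon 9 (chr5:75638965-75639158 against chr5:75638965-75639146, plus strand) add or leave out 12 bases that code for a short stretch just outside the membrane. Capitals mark those bases.
Kit-201: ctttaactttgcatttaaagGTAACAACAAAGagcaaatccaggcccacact
Kit-204: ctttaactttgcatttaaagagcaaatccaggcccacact

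Csf2rb and Csf2rb2 lie side by side on chromosome 15 on opposite strands, and their coding sequences were 95.2% identical (2503 of 2628 aligned bases). The longest identical stretch ran for 242 bases, and 40.5% of the 31-base words of the Csf2rb coding sequence also occurred in a Csf2rb2 transcript. Reads from such stretches can be divided between the genes only by estimate. The most different 60 coding bases are shown, with the 13 differing bases in capitals (chr15:78338893-78338952, plus strand, for Csf2rb and chr15:78294379-78294438, minus strand, for Csf2rb2).
Csf2rb-201: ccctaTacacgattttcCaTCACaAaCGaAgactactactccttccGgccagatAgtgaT
Csf2rb2-201: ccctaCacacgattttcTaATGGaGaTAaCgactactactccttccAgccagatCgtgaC

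A short Csf2rb model, Csf2rb-202, has 397 bases that equal the first 397 bases of the 4764-base Csf2rb-201. Its annotation stops inside exon 3 with an incomplete 3′ end. Capitals mark its last 20 bases within Csf2rb-201 (chr15:78336379-78336418, plus strand).
Csf2rb-201: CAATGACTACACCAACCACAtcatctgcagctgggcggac

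The gene tables held 27946070 to 53447437 expected counts per library, estimates in which reads that match several transcripts are divided. Taken as 3 counts of those totals, a count of 0 allows up to 0.107, 0.101 and 0.0561 CPM (counts scaled to library totals) in replicates 1, 2 and 3. Replicate 3 was the deepest and had shorter fragments, with 215 bases against 260 and 262 bases by the effective lengths of its transcript table. The 6 macrophage markers, among them Adgre1 and Cd68, all reached 1 TPM in every library and summed to 17600 to 33600 TPM. TPM is transcript abundance per transcript length scaled to a common sum, and it is used for every comparison of levels between genes.

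**Figure D1:**
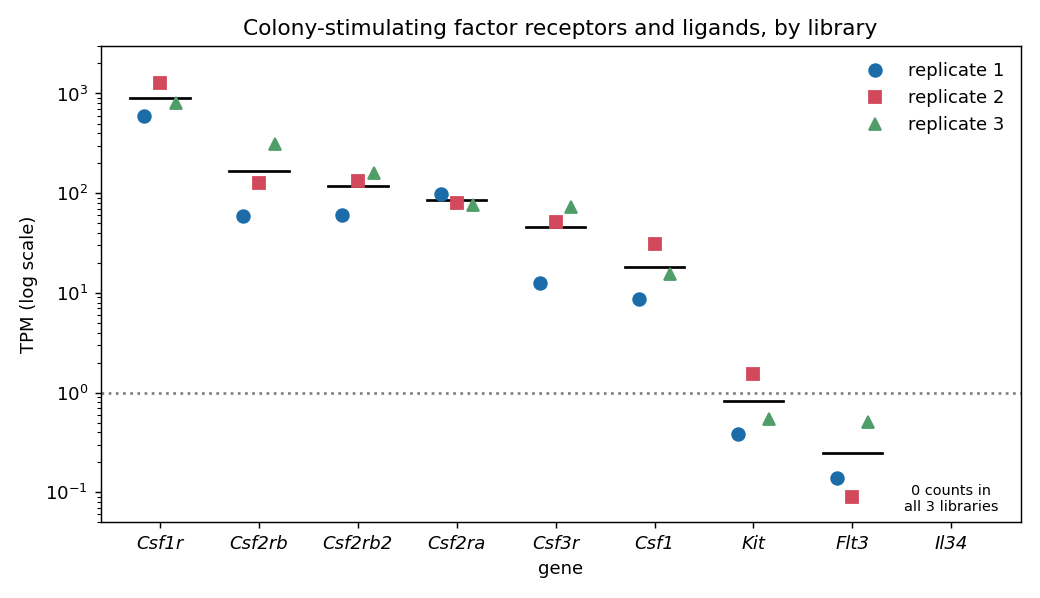
TPM of each gene (log scale) in replicates 1, 2 and 3, with the mean as a bar and 1 TPM as a dotted line. Csf1r is highest at 590.9 to 1279 TPM, 6 genes lie above 1 TPM in every library, and Il34 had 0 counts.

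Of the 9 genes, 6 reached 1 TPM in every library (Csf1r, Csf2rb, Csf2rb2, Csf2ra, Csf3r and Csf1), where 44.8% of all protein-coding genes did. The median of the mean levels was 45.7 TPM over the 9 genes and 0.503 TPM over all protein-coding genes. Kit and Flt3 had mean levels below 1 TPM, and Il34 had 0 counts. The 6 genes passed at 0.5 and at 5 TPM as well. In order of mean level, the ranges of neighbours overlapped for Csf2rb and Csf2rb2, for Csf2rb2 and Csf2ra, for Csf3r and Csf1, and for Kit and Flt3. They did not overlap for Csf1r and Csf2rb, for Csf2ra and Csf3r, or for Csf1 and Kit.

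Csf1r (ENSMUSG00000024621.16, chr18:61100598-61132149, plus strand) was at 590.9, 1279 and 805.6 TPM in replicates 1, 2 and 3 (892 ± 352, SD, n = 3). It ranked 219th, 92nd and 116th among all genes in the 3 libraries. Replicate 2 was the highest of the libraries, and no other member came within its range. Scaled by TMM, which makes libraries comparable through the bulk of genes, the CPM were 1414, 3020 and 1619. On this scale replicates 1 and 3 lay close together and replicate 2 was 2.14-fold above replicate 1.

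The ligand Csf1 (ENSMUSG00000014599.10, chr3:107741048-107760469, minus strand) was at 8.63, 30.76 and 15.53 TPM (18.3 ± 11.3). Replicate 2 was again the highest, and without it the mean was 12.1 TPM. Il34 (ENSMUSG00000031750.15, chr8:110741829-110805924, minus strand) had 0 counts in all 3 libraries, in the RSEM-format and the kallisto-format tables alike. The limits of 3 counts given above for a count of 0 therefore apply to it. The deposited posterior mean, which spreads a prior over transcripts, nevertheless listed Il34 at 1.04, 0.99 and 0.49 TPM. Of the other molecules that bind IL-34, Sdc1 was at 2.20 ± 0.355 TPM and Ptprz1 had 0 counts. Stromal cells are a known source of both ligands, and stromal markers summed to 1.19, 0.17 and 0.62 TPM, with 0 of 6 at 1 TPM in every library and Lum at 0 counts. The sum was lowest in replicate 2, where Csf1 was highest, but Cxcl12, at 0.46, 0.17 and 0.08 TPM, was lowest in replicate 3. No stromal marker had more than 30 counts in a library. The part of stromal cells in the Csf1 level was not tested.

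Csf2ra (ENSMUSG00000059326.7, chr19:61223957-61228429, minus strand), the alpha chain specific to GM-CSF, was at 98.91, 80.22 and 76.17 TPM (85.1 ± 12.1). Its highest library was 1.30-fold above its lowest, the smallest such ratio among the members with counts. Csf2rb (ENSMUSG00000071713.6, chr15:78325752-78353847, plus strand) was at 58.45, 126.9 and 311.9 TPM (165.7 ± 131). Its neighbour Csf2rb2 (ENSMUSG00000071714.7, chr15:78282507-78305721, minus strand) was at 60.45, 131.6 and 157.9 TPM (116.7 ± 50.4). In this table the pair had nearly equal TPM in replicates 1 and 2, and Csf2rb stood above Csf2rb2 in replicate 3. By TPM in the kallisto-format table Csf2rb was above Csf2rb2 in all 3 libraries, at 47.6, 120.9 and 276.6 TPM against 43.2, 94.1 and 164.9 TPM.

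By gene TPM the order of the pair changed with the table and the library. By counts in both tables, and over full-length models, Csf2rb lay below Csf2rb2 in every library. By TPM the ratio of Csf2rb to Csf2rb2 was 0.967, 0.964 and 1.98 (1.30 ± 0.583), and without replicate 3 it averaged 0.965. By kallisto-format TPM it was 1.10, 1.28 and 1.68 (1.35 ± 0.294), and by posterior mean TPM 1.04, 1.02 and 1.98. By expected counts it was 0.877, 0.930 and 0.700 (0.836 ± 0.12), below 1 in every library. Kallisto-format counts gave 0.888, 0.964 and 0.711. Over models with complete ends the TPM ratio was 0.841, 0.905 and 0.575, a mean of 0.774. Between the full-length Csf2rb-201 and Csf2rb2-201 it was 0.885, 0.922 and 0.67 in RSEM format and 0.899, 0.94 and 0.929 in kallisto format. Without replicate 3 the mean level of Csf2rb itself was 92.7 TPM. The authors' posterior SD of the count was 6.33, 9.73 and 15.24 counts for each gene of the pair, small beside 4203 to 24381 counts, although it covers only the division of reads under their model.

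Csf3r (ENSMUSG00000028859.14, chr4:126024550-126044440, plus strand) was at 12.66, 51.28 and 73.16 TPM (45.7 ± 30.6). Replicate 1 was far below the others. Because Csf3r is a neutrophil receptor, 11 neutrophil markers were read beside it. Of these, 4 reached 1 TPM in every library (S100a9, S100a8, Ngp and Ltf), 5 stayed below it in every library and Ly6g had 0 counts. Their sum was 173, 37.8 and 339 TPM. These 4 were lowest in replicate 2, with S100a9 at 86.9, 20.1 and 182.8 TPM and Ngp at 13.8, 1.95 and 57.5 TPM, while Csf3r in replicate 2 was 3.82-fold above replicate 1 on the TMM scale. Between replicates 1 and 2, then, Csf3r and these 4 genes differed in opposite directions, and both were highest in replicate 3. Lower markers did not all share that order: Prtn3, at 0.75, 1.43 and 0.77 TPM, was highest in replicate 2, and Camp, at 0.98, 0.31 and 0.50 TPM, in replicate 1. Over models with complete ends Csf3r was at 12.2, 47.2 and 43.1 TPM. Its top rank by TPM in replicate 3 thus rested on shorter models, described below. These models, Csf3r-203 and Csf3r-204, held 664.8 and 87.0 of the 5862 counts in replicate 3. On the TMM scale, over all models, Csf3r was at 23.4, 89.2 and 119.2 CPM. The part of neutrophil RNA in the Csf3r level was not tested. In RNA from whole cultures, fewer cells of a type and less RNA per cell cannot be told apart.

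**Figure D2:**
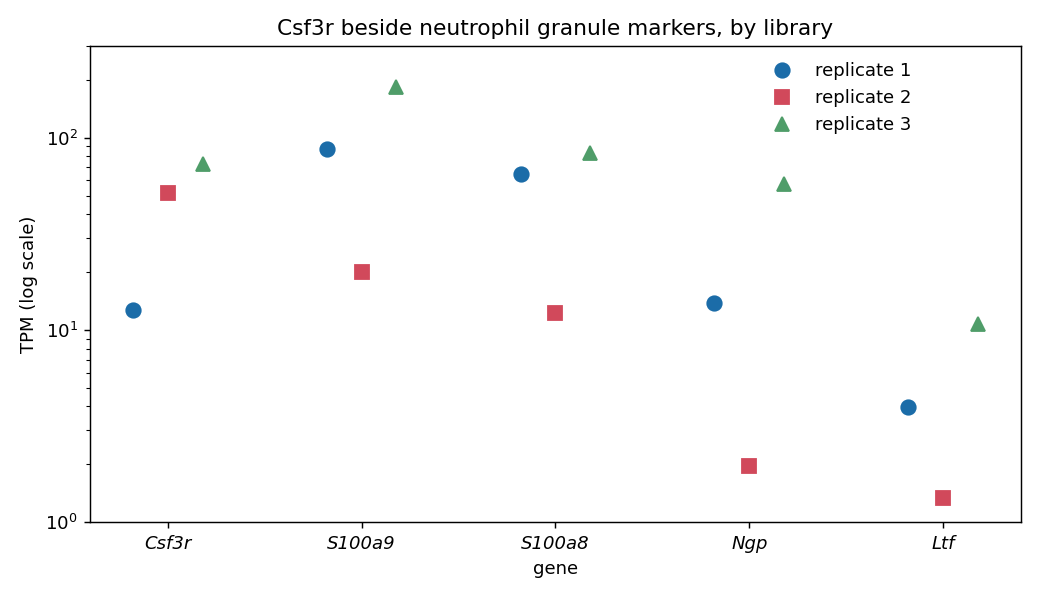
TPM (log scale) of Csf3r and of the 4 neutrophil markers at 1 TPM or more in every library, by replicate. Csf3r is lowest in replicate 1 (12.66 TPM), whereas these 4 markers are lowest in replicate 2, with Ngp at 1.95 TPM.

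Kit (ENSMUSG00000005672.12, chr5:75574916-75656722, plus strand) was at 0.38, 1.53 and 0.54 TPM (0.817 ± 0.623), from 28, 121 and 78 counts. Only replicate 2 exceeded 1 TPM, and without it the mean was 0.46 TPM. Mast cell markers summed to 0.54, 1.72 and 0.74 TPM, also highest in replicate 2. None of the 6 reached 1 TPM in every library, Tpsb2 and Mcpt4 had 0 counts, and Hdc made up most of the sum in replicate 2 with 1.38 TPM from 23 counts. Ms4a2 (0.07, 0 and 0.18 TPM) and Fcer1a (0.07, 0 and 0 TPM) had 0 counts in replicate 2. Cpa3 was at 0, 0.34 and 0.23 TPM, from 0, 1 and 11 counts. Progenitor markers, which Kit also accompanies, summed to 5.14, 3.98 and 3.80 TPM with 2 of 6 (Procr and Meis1) at 1 TPM throughout and none at 0 counts throughout. The part of either cell type in the Kit level was not tested.

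Flt3 (ENSMUSG00000042817.15, chr5:147330741-147400489, minus strand) had 9, 6 and 68 counts, or 0.14, 0.09 and 0.51 TPM (0.247 ± 0.229). As CPM these were 0.322 (95% exact two-sided interval 0.147 to 0.611), 0.202 (0.0739 to 0.439) and 1.27 (0.988 to 1.61), intervals that cover counting error only. The interval of replicate 3 lay above the other two, and without that library the mean was 0.115 TPM. Dendritic cell markers, a second setting for Flt3, summed to 5.09, 7.89 and 5.61 TPM with 1 of 6 (Batf3) at 1 TPM in every library and none at 0 counts in all. Batf3 was at 4.36, 6.14 and 2.04 TPM, lowest in replicate 3. Siglech, from plasmacytoid cells, was at 0.42, 0.91 and 1.96 TPM, highest in replicate 3 as Flt3 was. Whether such cells contributed was not tested.

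Most members with enough counts stood lower in replicate 1 than in replicate 2. Scaled counts were compared for each pair of libraries, and a difference over 2-fold was counted, with no p-value because each side of a pair is 1 library. Low counts were filtered out first. Counts were used here since the TPM of the median gene lay at log2 ratios of 0.02 and -0.21 to replicate 1 in replicates 2 and 3. Of the 9 members, 7 passed the filter, all but Flt3 and Il34, as did 11886 genes in all. From replicate 1 to replicate 2, 6 of the 7 were over 2-fold higher and 0 lower, where 9.91% of all genes were higher and 10.2% lower. The median log2 ratio was 1.20 over the 7 members and 0.00 over all genes. Csf1, Kit and Csf3r had the highest log2 ratios (1.97, 1.98 and 1.93), Csf2rb, Csf2rb2 and Csf1r followed (1.20, 1.12 and 1.10), and Csf2ra lay at -0.40.

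Replicate 3 against replicate 1 gave 4 of 7 over 2-fold higher (Csf3r, Csf2rb2, Csf1 and Csf2rb) and 0 lower, beside 9.76% and 11.4% of all genes. Csf3r was 5.10-fold higher, the largest ratio among the 7 members that passed the filter, and Csf1r was only 1.15-fold higher. Replicate 3 against replicate 2 gave 0 higher and 1 lower (Kit, log2 ratio -1.28), beside 8.64% and 10.3%. The comparisons share libraries, so a low replicate 1 enters the first 2 of them. The highest library over the lowest was 1.74-fold for the median gene and 3.60-fold at the 90th percentile. Csf3r (5.10), Kit (3.99) and Csf1 (3.93) lay beyond that percentile, and Csf2ra (1.32) lay below the median.

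**Figure D3:**
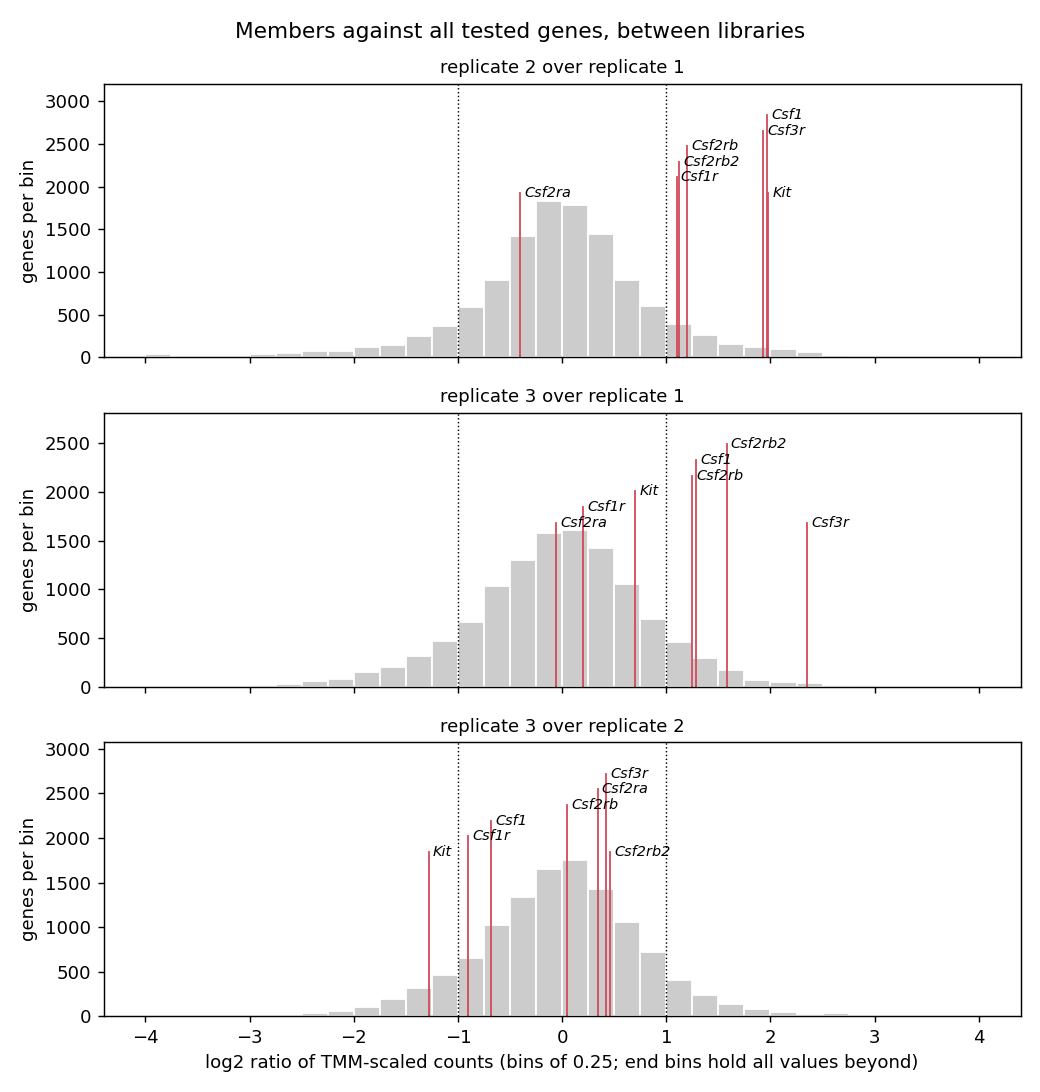
Number of genes per bin (grey bars, 11886 genes in all) against the log2 ratio between a pair of libraries, from TMM-scaled counts, with the 7 tested members as red lines and 2-fold as dotted lines. For replicate 2 over replicate 1 all members but Csf2ra lie beyond 2-fold, from 1.10 to 1.98.

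The transcript tables show which models carried these levels. One table is in RSEM format, from alignments, and the other in kallisto format, made directly from reads. For Csf1r, the full-length Csf1r-201 held 83.2%, 83.7% and 51.8% of the gene's TPM in the RSEM-format table. In replicate 3 most of the remainder lay in Csf1r-205, a 416-base model of 3 exons with an incomplete 3′ end, which held 0%, 0% and 34.8%. Its counts in replicate 3 were 1923 of 79607, a small share of the reads, which division by the short length turned into the larger share of TPM. Over models with complete ends Csf1r was at 590.5, 1278 and 524.3 TPM, which places replicate 3 lowest by TPM. On the TMM scale, over all models, replicate 1 was lowest, at 1414 CPM against 1619 in replicate 3. The kallisto-format table also put Csf1r-205 high in replicate 3 alone, at 19.8, 34.4 and 236.8 TPM.

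Csf2rb followed the same course. Csf2rb-201 held 84.7%, 91.2% and 28.2% of TPM, and Csf2rb-202, the prefix printed above, 13.1%, 4.83% and 65.2%, from 20.96, 17.84 and 1253 counts. Over models with complete ends Csf2rb was at 50.8, 119.1 and 90.8 TPM (86.9 ± 34.3), and replicate 2 was then the highest. In Csf3r, Csf3r-203, a model of 921 bases with an incomplete start, held 0%, 0.761% and 34.4%. Models with an incomplete 3′ end, as Csf1r-205 and Csf2rb-202 are and Csf3r-203 is not, held more in replicate 3 over all genes as well. Among 9875 protein-coding genes at 1 TPM or more, they took 2.09%, 2.06% and 3.46% of TPM. They took over 30% of a gene's TPM in 266, 240 and 476 genes, or 2.69%, 2.43% and 4.82%. The part of fragment length in these shares was not tested.

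**Figure D4:**
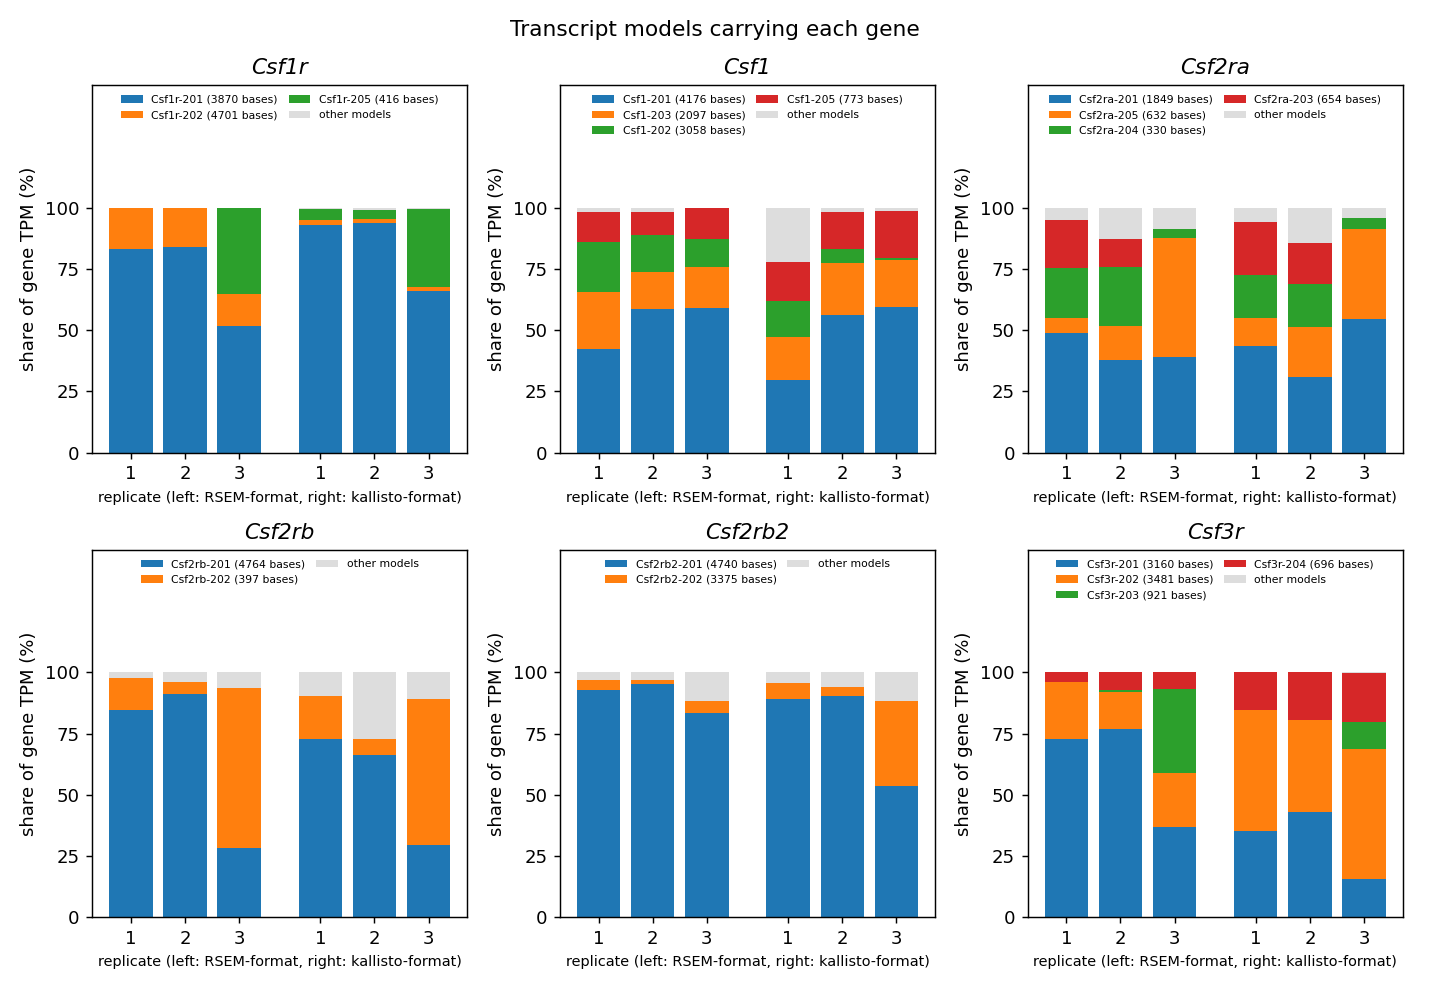
Share of each gene's TPM by transcript model in replicates 1 to 3, in the RSEM-format table (left bars) and the kallisto-format table (right bars), for models with a mean share of 10% or more in either. In replicate 3 the 416-base Csf1r-205 and the 397-base Csf2rb-202 widen in both tables.

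Splice forms of the ligand Csf1 could be read from 3 full-length models. Csf1-201 and Csf1-203 contain the long exon 6 and code for 1656 bases, and Csf1-202 has the short exon and codes for 771. Among these 3, the long exon held 75.9%, 83.1% and 87.0% in the RSEM-format table (82.0 ± 5.63). The short exon held 24.1%, 16.9% and 13.0% there, and 23.9%, 7.21% and 0.919% in the kallisto-format table. Both tables thus placed the long exon first in every library and had the short form highest in replicate 1, but they lay far apart in replicate 3. The distal last exon of Csf1-201 and Csf1-202 held 73.2%, 83.0% and 80.7%, beside 72.0%, 74.7% and 75.9% by kallisto. Outside these 3, Csf1-205, a 773-base model with an incomplete 3′ end, held 12.1%, 9.36% and 12.8% of the gene by RSEM and 16.2%, 15.1% and 19.4% by kallisto.

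The tables differed more on forms of the receptors. Csf3r has an upstream start (Csf3r-202) that leaves the 2511-base coding sequence unchanged. Between Csf3r-201 and Csf3r-202, the upstream start held 24.3%, 16.6% and 37.6% in the RSEM-format table and 58.6%, 46.6% and 77.1% in the kallisto-format table. In both tables replicate 3 was highest and replicate 2 lowest, but the downstream start led throughout in the first and only in replicate 2 in the second. Csf3r-204, a non-coding model of 696 bases, held 3.71%, 7.14% and 6.75% of the gene by RSEM and 15.2%, 19.6% and 20.1% by kallisto. Csf2rb2-202, which lacks 2 exons of Csf2rb2-201, held 4.42%, 1.42% and 5.66% of the pair by RSEM and 6.61%, 4.10% and 39.2% by kallisto. Csf1r-202, with a longer 3′ end, held 16.5%, 16.1% and 20.2% of its pair with Csf1r-201 by RSEM and 2.08%, 1.86% and 2.24% by kallisto.

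Among the 6 genes at 1 TPM or more in every library, Csf2ra had the smallest share of its TPM in coding models. Csf2ra-201 held 48.8%, 38.0% and 38.9% of TPM by RSEM and 43.4%, 30.9% and 54.6% by kallisto. Csf2ra-205, a retained-intron model of 632 bases, held 6.07%, 13.8% and 48.7% by RSEM and 11.4%, 20.3% and 36.5% by kallisto. In replicate 3, Csf2ra-205 thus led by RSEM, from 561.4 of 2959 counts, and Csf2ra-201 led by kallisto. By RSEM the non-coding Csf2ra-203 held 19.9%, 11.6% and 0%, and Csf2ra-204 held 20.3%, 23.9% and 3.60%. By kallisto they held 21.8%, 16.5% and 0%, and 17.5%, 17.8% and 4.67%. The gene level of Csf2ra, which varied little, thus joined models whose shares varied widely. For Kit, Kit-204, the form without the 12 bases, was detected only in replicate 2, where Kit-201 held 68.8% of the pair by RSEM and 59.6% by kallisto. These shares rest on few counts, 73.2 for Kit-201 and 33.7 for Kit-204 in that library.

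**Figure D5:**
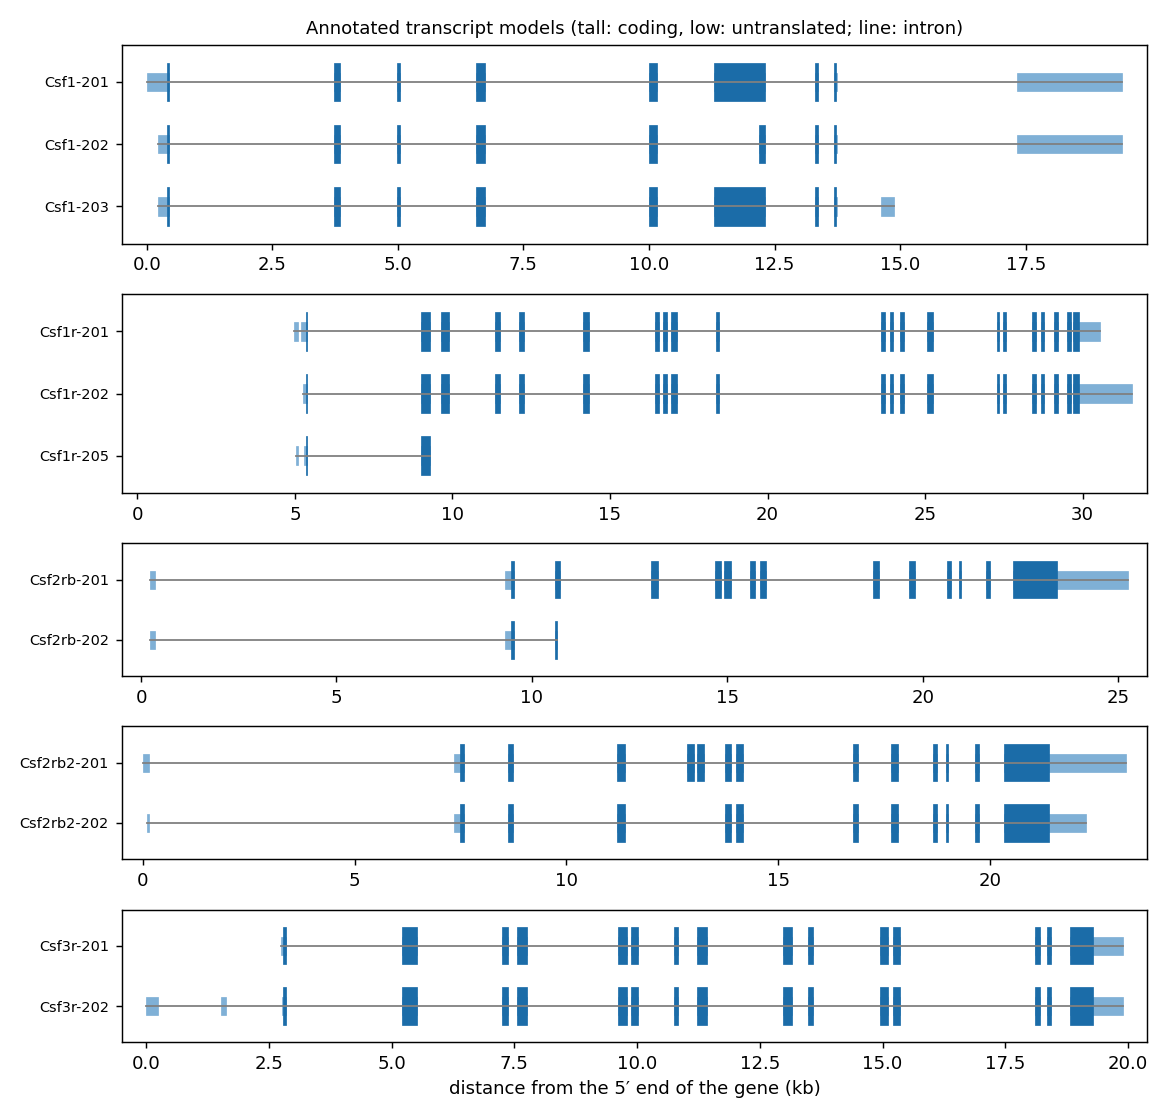
Exons of the annotated models compared in the text, as distance from the 5′ end of the gene in kb, with coding parts tall and untranslated parts low. Csf1-202 shortens the sixth exon from 1016 to 131 bases, Csf2rb-202 and Csf1r-205 cover only the first exons, and Csf2rb2-202 lacks 2 exons.

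The partners and relays of these receptors were mostly present. Of 57 other pathway genes in 7 lists, 48 reached 1 TPM in every library, with a median of the mean levels of 34.1 TPM. Of all protein-coding genes 44.8% did, with a median of 0.503 TPM. All 22 genes of CSF1R signalling did (median 52.5 TPM). They were led by the adaptors Tyrobp (2800 ± 937 TPM) and Grb2 (292.8 ± 83.9) and the phosphatase gene Ptpn6 (169.1 ± 30.1), and the kinase Src was lowest (1.79 ± 0.383). All 7 genes of receptor shedding and cleavage did (median 75.8 TPM), among them the gamma-secretase parts Psenen (130.3 ± 52.0) and Ncstn (78.9 ± 12.2), with Rhbdf2 lowest (19.4 ± 10.9). All 8 myeloid transcription factors did (median 47.2 TPM), led by Spi1 (284.9 ± 47.7) and Irf8 (134.2 ± 43.9). Cebpb was the lowest of these, at 18.5, 28.6 and 2.95 TPM, with replicate 3 far below the others.

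For the receptors that use the beta chains and the G-CSF receptor, listed together, 8 of 10 partner and JAK-STAT genes reached 1 TPM in every library (median 16.6 TPM). Jak1 (83.2 ± 14.1 TPM), Stat3 (47.4 ± 13.8) and the STAT target Pim1 (33.9 ± 11.0) led. Il3ra, the IL-3 partner of the beta chains, was at 27.0 ± 12.9 TPM, and Il5ra, the IL-5 partner, at 0, 0 and 0.05 TPM. Cish, a feedback inhibitor of STAT5 signalling, was at 0.08, 1.20 and 0.17 TPM and was highest in replicate 2. The RNAs of the ligands were scarce. Of 6 ligands outside the set, 2 reached 1 TPM in every library, Kitl (5.88 ± 1.66 TPM) and Flt3l (5.70 ± 2.42), the ligands of KIT and FLT3. Csf2, for GM-CSF, had 0, 1 and 1 counts and Csf3, for G-CSF, 1, 1 and 0, while Il3 and Il5 had 0 in every library. Pdgfra and Pdgfrb, kinases related to CSF1R, had at most 8 counts.

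The same pairs of libraries were compared for the pathway genes. Of the 48 that passed the filter, 3 were over 2-fold higher and 2 lower in replicate 2 than in replicate 1, with a median log2 ratio of 0.26. Among all genes tested, 9.91% were higher and 10.2% lower. In replicate 3 against replicate 1, 3 pathway genes were higher and 6 lower (median -0.03), beside 9.76% and 11.4% of all genes. In replicate 3 against replicate 2, 1 was higher and 7 were lower (median -0.06), beside 8.64% and 10.3%.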

How the data were processed

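Polyadenylated RNA of 3 libraries was analysed from the deposited tables. Expected counts, TPM and FPKM per gene and transcript, and the percent of each gene in each transcript, were deposited by the authors in RSEM-format tables. Estimated counts and TPM were also deposited in kallisto-format transcript tables. The deposited file lists name build mm10 and GENCODE M21. For the aligner, the program versions and the use of strand, nothing is stated in the labels or headers used here.

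Genes were matched to the annotation by identifier. Entries that name no gene took 0.131%, 0.122% and 0.0843% of counts and were left out. Expected counts were rounded, filtered with filterByExpr and scaled by TMM factors in edgeR 4.0.16 (R 4.3.3). Log2 ratios used a prior count of 0.5. These steps were tested on simulated libraries set to differ less than the real ones, which checked the calculation only. Transcript shares were computed from TPM. Models with incomplete ends carry that tag in the annotation. Coding sequences were aligned with Biopython 1.88. Other settings were DESeq2 1.42.0 size factors, library totals, no filter, a 1.5-fold limit, other TPM thresholds, log2 TPM with a pseudocount of 1, posterior means, kallisto-format values, and leaving out each library. Two-sided exact 95% Poisson intervals and the separate limit of 3 counts where none was seen allow for counting error alone.

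All 9 members are named, with the 3 highest and the lowest gene of each pathway list and, for the 6 members that reached 1 TPM throughout, transcripts with a mean share of 10% or more in either table. Results of 2 genes that this rule names are not reported here. Other pathway and marker genes were named after their values were seen. The members and the 15 lists were chosen with earlier results of these data known. With 1 group, no test was made.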

Additional observations from a re-analysis of the deposited data

How the results depend on the processing

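Of 61 alternative values for the counts, ratio and leading-transcript shares, 55 lay within 1.5 times (counts) or 1 SD over libraries (others) of the reported value, as did 53 of 56 mean levels by the SD. Of 105 log2 ratios, 100 kept their side of 2-fold. That SD is wide: mean Csf2rb moved from 165.7 to 86.9 TPM over models with complete ends and to 92.7 TPM without replicate 3, and the ratio of Csf2rb to Csf2rb2 turned from 1.30 to 0.836 by counts, 0.774 over models with complete ends and 0.965 without replicate 3. Between replicates 3 and 2, the log2 ratio of Csf2ra changed sign from 0.34 to -0.07 on the log2 TPM scale, and that of Csf2rb from 0.05 to -0.13 with library totals. Csf2rb in replicate 3 over 1 went from 1.25 to 2.40 on the log2 TPM scale. The number of members over 2-fold apart between replicates 3 and 2, 1 in the report, was 2 with library totals only, 2 with no filter, 2 with kallisto-format counts and 3 at 1.5-fold. With library totals the added gene was Csf1r, at a log2 ratio of -1.09. On the log2 TPM scale Csf2rb was at 1.29 between these libraries, against 0.05 from counts. In the kallisto-format table the mean share of Csf2rb2-201 was 77.7% (90.4% by RSEM) and that of Csf3r-201 was 31.2% (62.1%), below the 46.7% of Csf3r-202. The posterior mean brought a seventh gene, Kit, to 1 TPM in every library. The causes were not tested. The models with complete ends and the count ratio of Csf2rb to Csf2rb2 were added after seeing the data. Depth limits Flt3, Kit and Il34. No paired analysis was possible because there is 1 group.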
